A study of Mus musculus with 9 samples.

Results

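The 9 genes described here act where blood clotting starts, is held back and is undone: F3 (tissue factor), Tfpi, Thbd, Procr, Plat, Plau, Serpine2, A2m and F13a1. They were selected by gene symbol, as every probe that is not a control and carries one of these names, and the choice was made with the log2 ratios of these tissues known. They are 9 of the 31829 genes on the array and 12 of its 39429 probes, since F3, Tfpi and F13a1 have 2 probes each. For these 9 genes the values below are therefore a description. Where one of them is said to pass the thresholds, the call marks size and spread and is not read as a test. The limma test is read as a test only for other genes.

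The samples were the choroid (CH), the retinal pigment epithelium (RPE) and the photoreceptors (PR) of female C57BL/6 mice (the J strain by the study's methods), whose age the labels give as 6 months with a range of 2 weeks (the study's methods give a younger age). Each tissue was cut by laser from frozen sections and measured on 3 arrays, and each sample came from 1 eye. The RPE was taken off before the CH was cut. The amplified RNA of the tissue carried Cy5, and the Cy3 channel of every array held 1 shared reference of RPE and choroid RNA, with no dye swap. A log2 ratio of 0 thus means the level of the reference, and the reference itself holds the RNA of both tissues at the back of the eye. The ratios were fitted over all 9 arrays, and a difference of log2 ratios between tissues is given with its standard error (SE).

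The choroid is the vascular bed behind the retina, the RPE is the pigmented cell layer between that bed and the photoreceptors, and the photoreceptor layer holds no vessels of its own. Tissue factor is the membrane receptor that captures factor VII and starts clotting once blood meets cells outside the vessel. Endothelial cells oppose it with tissue factor pathway inhibitor and with the protein C system, in which thrombomodulin turns thrombin into an activator of protein C. Plasmin later dissolves fibrin, and it is made from plasminogen by the tissue-type and urokinase-type activators.

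RPE replicate 2 stood apart from the other arrays. On it 91.7% of the probes were well above background in Cy5, against 62.1% to 71.3% on the other 8 arrays. The median Cy5 signal over 43020 spots lay between 617 and 1534 on the 9 arrays. The tissues may have been partly mixed, since markers of other tissues were well above background in each. That flag alone does not show mixing, because 62.1% to 91.7% of all probes carried it, and mixing was not tested. All 8 rod markers were well above background on every CH and RPE array, and 7 of the 8 RPE markers were well above background on every CH array. On every PR array at least 7 of the 8 RPE markers, all 8 endothelial markers and all 6 fibroblast markers were well above background. Best1, an RPE chloride channel gene, was not well above background on any CH array. It was so on 1 of the 3 RPE arrays, which was RPE replicate 2, and on 1 of the 3 PR arrays. Its mean log2 ratio was -0.06 in the RPE and 0.31 in the PR. In such bulk samples fewer cells of a type and less RNA per cell cannot be told apart. With 3 arrays per tissue the precision is limited, and the p-values measure the spread between these samples, which the labels do not tie to separate mice.

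The sequences that were hybridised are shown for the genes on which the results turn, because 3 of the genes have 2 probes that did not respond alike. Each probe holds 60 bases and is printed 5′ to 3′ in lower case with no part marked. Of the brighter probe of each pair, probe 1, and of the Thbd probe, only the first 30 bases are given. Genome positions refer to mm9, as the scanner files give them.
F3 probe 1 (chr3:121437717-121437776, + strand): ctgacaatgatggggtttaaacatttgaca
F3 probe 2 (chr3:121434609-121435346, + strand): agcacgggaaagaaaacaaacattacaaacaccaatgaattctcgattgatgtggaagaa
Tfpi probe 1 (chr2:84273059-84273118, - strand): tttcgccagttatgatcacaaacattacat
Tfpi probe 2 (chr2:84284179-84284238, - strand): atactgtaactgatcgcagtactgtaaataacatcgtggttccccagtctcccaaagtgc
Thbd (chr2:148230235-148230294, - strand): tatttatttattggagtttcgctagaacac
Serpine2 (chr1:79793476-79796093, - strand): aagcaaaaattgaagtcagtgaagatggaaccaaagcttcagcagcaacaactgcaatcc
A2m (chr6:121610887-121610946, + strand): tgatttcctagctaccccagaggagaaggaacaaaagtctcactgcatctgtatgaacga
F13a1 probe 1 (chr13:36959214-36959273, - strand): ctggtttacttctaagtcattgataggttc
F13a1 probe 2 (chr13:37063829-37063888, - strand): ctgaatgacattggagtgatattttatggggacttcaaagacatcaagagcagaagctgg
The 60 bases of F3 probe 2 lie over 738 bases of the genome and those of Serpine2 over 2618 bases, so both probes join stretches that are apart in genomic DNA. The share of G and C was 35% in F3 probe 1, 36.7% in F3 probe 2 and in the Thbd probe, and 45% in the A2m probe. The other 3 genes have 1 probe each, Procr at chr2:155580945-155581004, Plat at chr8:23892531-23892590 and Plau at chr14:21662242-21662301.

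F3, the gene of tissue factor, was highest in the RPE, lower in the CH and far lower in the PR. At probe 1, the brighter probe, the log2 ratios were 1.33, 1.61 and 1.39 on RPE replicates 1 to 3. They were -0.16, 0.01 and 1.10 on the CH replicates and -5.31, -4.87 and -5.41 on the PR replicates. No CH array reached the lowest RPE array, but CH replicate 3 came close to it and lay well above the other 2 CH arrays. The difference of RPE minus CH was 1.12 (SE 0.29), a fold change (FC) of 2.18. The difference of RPE minus PR was 6.64 (SE 0.29) and that of CH minus PR was 5.51 (SE 0.29), which are FCs of 99.6 and 45.7.

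F3 probe 2 gave the same order of the tissues with other distances. Its log2 ratios were -0.40, -0.60 and -0.27 in the RPE, -1.46, -2.51 and -2.13 in the CH, and -4.39, -4.70 and -4.51 in the PR. The 3 tissues did not overlap, and here CH replicate 3 lay between the other 2 CH arrays. RPE minus CH was 1.61 (SE 0.23), a FC of 3.05, RPE minus PR was 4.11 (SE 0.23) and CH minus PR was 2.498 (SE 0.23). The log2 ratios of the pair correlated over the 9 arrays with a Pearson r of 0.94, and all 9 share the reference.

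CH replicate 3 also carried more RPE signal than its group. The mean log2 ratio of the 8 RPE markers was 1.09 on this array, 0.43 and 0.20 on the other CH arrays, and 1.79 to 2.18 on the RPE arrays. At its brightest probe Ttr was saturated on all CH and RPE arrays. Rdh5, Rgr and Rpe65 were so on all RPE arrays and on 2, 2 and 1 CH arrays, and Lrat on 1 RPE array. The gap of this list between the RPE and the CH may therefore be understated. Without CH replicate 3 the RPE minus CH difference of F3 probe 1 was 1.52 in place of 1.12 and passed both thresholds. Whether RPE cells in the CH sample had a part in the F3 value was not tested.

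Thbd, which encodes thrombomodulin, ran the other way between the RPE and the CH. Its log2 ratios were 0.53, 0.88 and 0.88 on the CH arrays, -0.58, -0.76 and -0.75 on the RPE arrays, and -5.07, -5.18 and -5.46 on the PR arrays. The spread within each tissue was small beside the gaps, and no tissue overlapped another. RPE minus CH was -1.46 (SE 0.13), which means a level 2.75-fold higher in the CH. RPE minus PR was 4.54 (SE 0.13) and CH minus PR was 6.00 (SE 0.13), a FC of 63.9 and the largest CH minus PR difference of the 12 probes.

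Procr, the endothelial receptor that holds protein C close to thrombomodulin, followed the same order. The log2 ratios were 1.22, 1.31 and 0.76 in the CH, -0.33, -0.22 and -0.36 in the RPE, and -3.51, -3.70 and -3.63 in the PR. Again no tissue overlapped another. RPE minus CH was -1.40 (SE 0.14), or 2.64-fold higher in the CH, and CH minus PR was 4.71 (SE 0.14). Without CH replicate 2 the difference to the RPE was -1.29, just under the threshold on the FC.

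Tfpi, the inhibitor of the complex of tissue factor and factor VII, was measured by a pair of probes that differed in size of response. At probe 1 the log2 ratios were 1.19, 1.20 and 0.85 in the CH, -0.04, 0.01 and -0.05 in the RPE, and -3.88, -3.59 and -3.40 in the PR. The RPE arrays thus lay at the level of the reference and all CH arrays above them, with RPE minus CH at -1.10 (SE 0.14), or 2.15-fold higher in the CH. RPE minus PR was 3.60 and CH minus PR was 4.70, both with an SE of 0.14. At probe 2 the RPE and CH arrays overlapped, at -0.60, -0.59 and -0.45 in the RPE and -0.01, -0.28 and -0.56 in the CH. The PR arrays were lower, at -1.59, -1.25 and -1.24, so that RPE minus PR was 0.82 and CH minus PR was 1.08, both with an SE of 0.15. The pair correlated with a Pearson r of 0.96 over the 9 arrays.

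**Figure D1:**
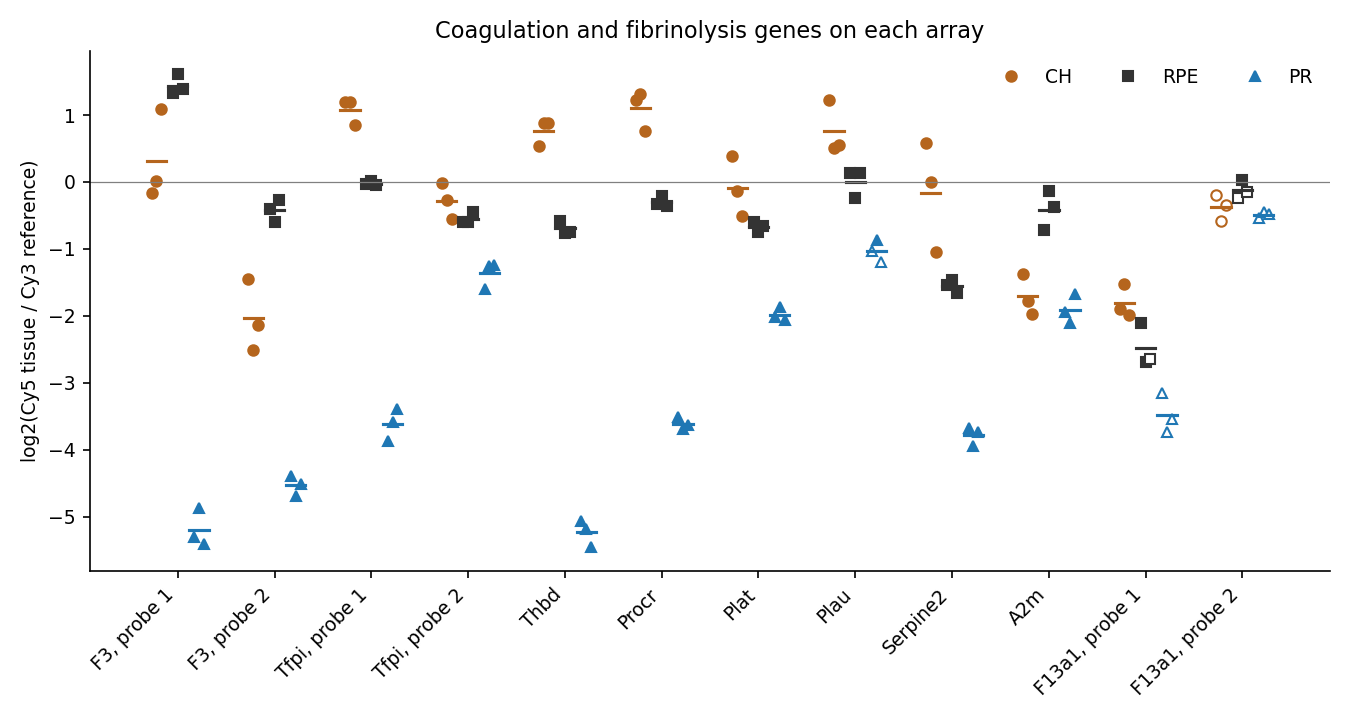
Log2 ratio of tissue (Cy5) to common reference (Cy3) at the 12 probes of the 9 genes, with 1 point per array and a bar at the mean of each tissue (3 arrays). Open points were not well above background in Cy5. F3 and A2m are highest in the RPE, while Thbd, Procr and Tfpi probe 1 are highest in the CH.

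Among the plasminogen activators the tissues stood closer together. Plat, the tissue-type activator, had log2 ratios of 0.39, -0.13 and -0.51 in the CH, -0.60, -0.74 and -0.65 in the RPE, and -2.02, -1.87 and -2.06 in the PR. The lowest CH array lay just above the highest RPE array, and RPE minus CH was -0.58 (SE 0.19). CH minus PR was 1.90 (SE 0.19), a FC of 3.73. RPE minus PR was 1.32 (SE 0.19), a FC of 2.49 and so just outside the threshold of 2.5. Without RPE replicate 2 it was 1.36 and without PR replicate 2 it was 1.37, and both passed the thresholds.

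Plau, the urokinase-type activator, had log2 ratios of 1.22, 0.50 and 0.55 in the CH and 0.13, -0.24 and 0.13 in the RPE. The PR arrays gave -1.04, -0.87 and -1.19, and Plau was well above background on only 1 of these 3. CH replicate 1 was the highest of all arrays, and no tissue overlapped another. RPE minus CH was -0.75 (SE 0.20), RPE minus PR was 1.04 (SE 0.20) and CH minus PR was 1.79 (SE 0.20). With the log ratios of the Feature Extraction software RPE minus PR was 1.99, which passed both thresholds, and CH minus PR was 2.98.

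The pair of protease inhibitors differed in where they were high. A2m encodes alpha-2-macroglobulin, which traps proteases of many kinds, plasmin and thrombin included. Its log2 ratios were -0.72, -0.14 and -0.38 in the RPE, -1.37, -1.79 and -1.98 in the CH, and -1.95, -2.11 and -1.68 in the PR. All RPE arrays lay above all others, and the CH and PR arrays overlapped. RPE minus CH was 1.30 (SE 0.20), a FC of 2.46, and RPE minus PR was 1.499 (SE 0.20), a FC of 2.83. CH minus PR was 0.20 (SE 0.20), with a 95% interval from -0.24 to 0.64. The first of these sits just under the threshold on the FC, and it was 1.47 without CH replicate 1 and 1.45 without RPE replicate 1. In the RefSeq gene table Mug1, another gene of the macroglobulin family, is the neighbour of A2m. It was not well above background on any CH array and its RPE minus CH difference was 0.13 (SE 0.10, B-H adjusted p = 0.408, limma).

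Serpine2 encodes a serpin that blocks thrombin, urokinase and plasmin at cell surfaces. Its log2 ratios were 0.58, -0.0029 and -1.05 in the CH, -1.54, -1.47 and -1.66 in the RPE, and -3.67, -3.94 and -3.73 in the PR. The CH arrays were spread over a far wider range than those of the RPE or the PR, and CH replicate 3 lay nearest to the RPE, as it did for F3 probe 1 in the other direction. RPE minus CH was -1.40 (SE 0.32), RPE minus PR was 2.23 (SE 0.32) and CH minus PR was 3.62 (SE 0.32), a FC of 12.3. Without CH replicate 3 RPE minus CH was -1.84, past both thresholds. The mean log2 ratio of 6 fibroblast markers was 1.27 on this array against 1.61 and 1.69 on the other CH arrays, and that of 8 endothelial markers was 0.84 against 1.54 and 1.20. Their part in the Serpine2 values was not tested.

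F13a1, the catalytic subunit of the factor that cross-links fibrin, was dim. At probe 1 the log2 ratios were -1.89, -1.53 and -1.98 in the CH, -2.10, -2.69 and -2.64 in the RPE, and -3.15, -3.73 and -3.54 in the PR. All CH arrays lay above all RPE arrays, and RPE minus CH was -0.68 (SE 0.20). RPE replicate 3 was not well above background, and neither was any PR array. The mean Cy5 signal after loess and Aquantile normalization was 2.92-fold higher in the CH than in the PR. Each PR array enters with the higher of its lowest signal well above background and the probe's own signal, which here was the probe's own on all 3. This fold is thus a measured value and not a lower bound. It may carry dye bias, since the dyes were never swapped. The differences of log2 ratios were 1.67 for CH minus PR and 1.00 for RPE minus PR, both with an SE of 0.20. Probe 2 was well above background on RPE replicate 2 alone, the array that stood apart. Its ratios lay between -0.59 and 0.03, and it correlated with probe 1 with an r of 0.17. It says nothing of the order of the tissues.

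Macrophages are a known source of F13a1. Of 8 macrophage markers, 3 were higher in CH than in RPE by both thresholds. Csf1r went the other way at all 3 of its probes. Its RPE minus CH differences were 0.53, 0.93 and 0.55, all short of the threshold on the FC. Cd163 was not well above background on any CH or PR array. The mean log2 ratio of the 8 markers was -0.30 to 0.15 on the CH arrays, -0.89 to -0.75 on the RPE arrays and -2.75 to -2.67 on the PR arrays. Their part in the F13a1 values was not tested.

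**Figure D2:**
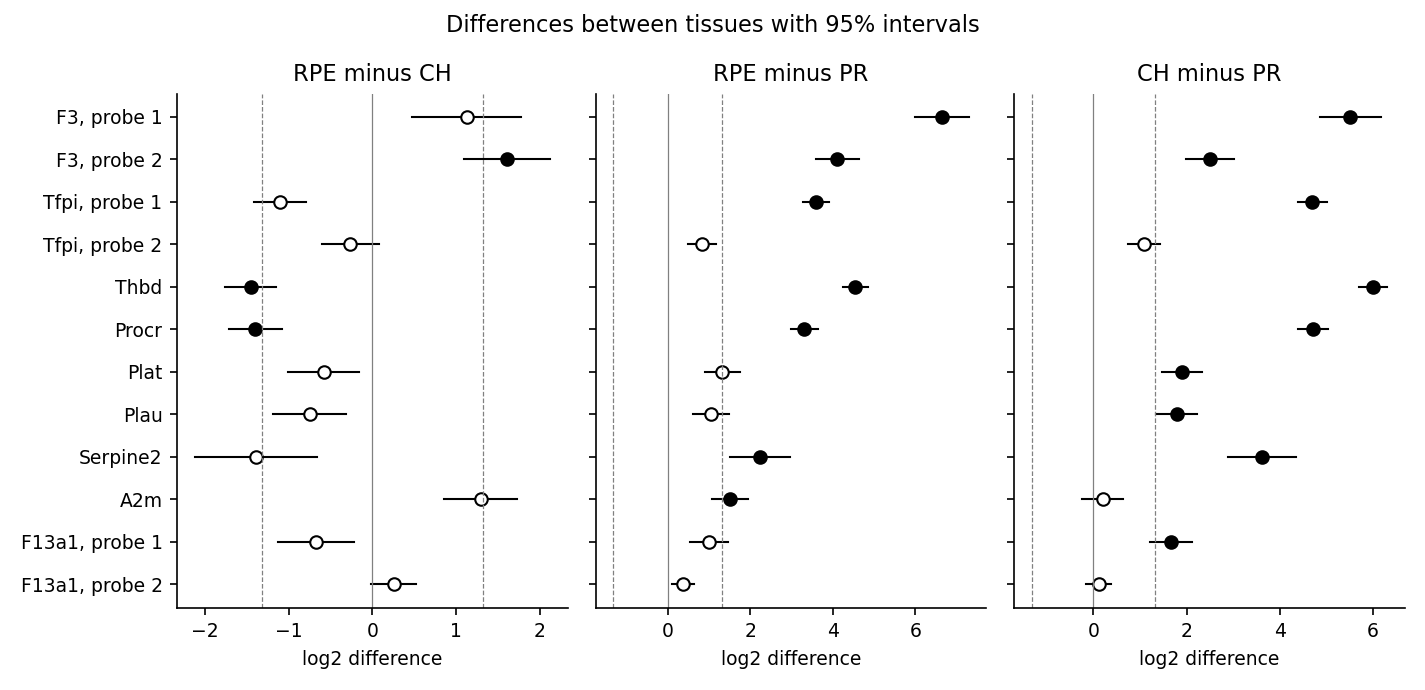
Difference in log2 ratio between tissues (points) with its 95% interval from the fit over 9 arrays (lines), for each of the 12 probes. Filled points lie past a FC of 2.5 (dashed lines) and an adjusted p-value of 0.01. The fill is a description, since the genes were chosen with these differences known. F3 and A2m lie to the right in RPE minus CH, most other probes to the left, and all 12 points lie above 0 in both comparisons with the PR.

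The thresholds of the study's methods were a FC above 2.5 together with an adjusted p-value below 0.01 (Benjamini-Hochberg, B-H), met by 1 or more probes of a gene. Of the 9 genes, 1 was past them as higher in RPE than in CH (F3, at probe 2), where 0.217% of all genes were. As higher in CH than in RPE there were 2 (Thbd and Procr), where 1.81% of all genes were. Against the PR, 6 were past them as higher in the RPE (F3, Tfpi, Thbd, Procr, Serpine2 and A2m), where 11.2% of all genes were. As higher in CH than in PR there were 8, all but A2m, where 13.2% of all genes were. None of the 9 was past them as higher in the PR, where 5.71% of all genes were against the RPE and 6.92% against the CH. Nothing is read from these counts, because the same differences were known when the genes were chosen. The 2 comparisons with the PR share the PR arrays.

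Arrays that share a scan identifier in the file headers are called a slide here, since scan and slide cannot be told apart. For the probes whose tissues did not overlap, the same order within slides follows from that and is no separate check. The differences within slides are given for their size only. On the slide with CH and RPE replicates 1 and 3, RPE minus CH was 0.89 at F3 probe 1 and 1.46 at F3 probe 2. It was -1.37 for Thbd, -1.34 for Procr, -1.06 for Tfpi probe 1, -1.36 for Serpine2 and 1.12 for A2m. On the slide with replicate 2 of all tissues, the same differences were 1.59, 1.91, -1.63, -1.53, -1.19, -1.46 and 1.65. Against the PR this slide gave 6.48 for the RPE and 4.89 for the CH at F3 probe 1, and 4.43 and 6.06 for Thbd. The third slide held PR arrays only.

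The levels of the marker lists were set beside these genes, and not every list differed between the RPE and the CH. Between the RPE and the CH, 6 of 8 RPE markers were higher in the RPE, and 6 of 6 fibroblast markers and 3 of 5 melanocyte markers were higher in the CH. Of the other melanocyte markers, Tyr went the other way, with RPE minus CH of 0.68 and 0.82 at its 2 probes, short of the threshold on the FC. Dct did not pass, and its brighter probe was saturated on all CH and RPE arrays. Of the endothelial markers, 0 of 8 passed the thresholds in limma in either direction. The mean log2 ratio of the 8 endothelial markers was 0.84 to 1.54 in the CH, 1.12 to 1.23 in the RPE and -1.99 to -1.83 in the PR. Their summed Cy5 signal was 151527 to 213678 on the CH arrays, 165844 to 197038 on the RPE arrays and 17108 to 21949 on the PR arrays. Thbd and Procr, both genes of endothelial cells, were lower in the RPE than in the CH. The ranges of the endothelial list overlapped there, and its lowest CH value, 0.84, was that of CH replicate 3. The median RPE minus CH difference of the 8 markers was -0.01. Cdh5 had all CH arrays above all RPE arrays, with a difference of -0.40 (SE 0.19), while Kdr had 0.27 (SE 0.22) at its brighter probe, with overlap. The mean of 5 smooth muscle and pericyte markers was 1.89, 1.87 and 1.16 on CH replicates 1 to 3, 0.54 to 0.83 in the RPE and -2.30 to -2.23 in the PR, and 1 of the 5 passed as higher in the CH against the RPE. All 8 rod markers were higher in the PR than in either other tissue. The part of these cells in the values above was not tested.

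**Figure D3:**
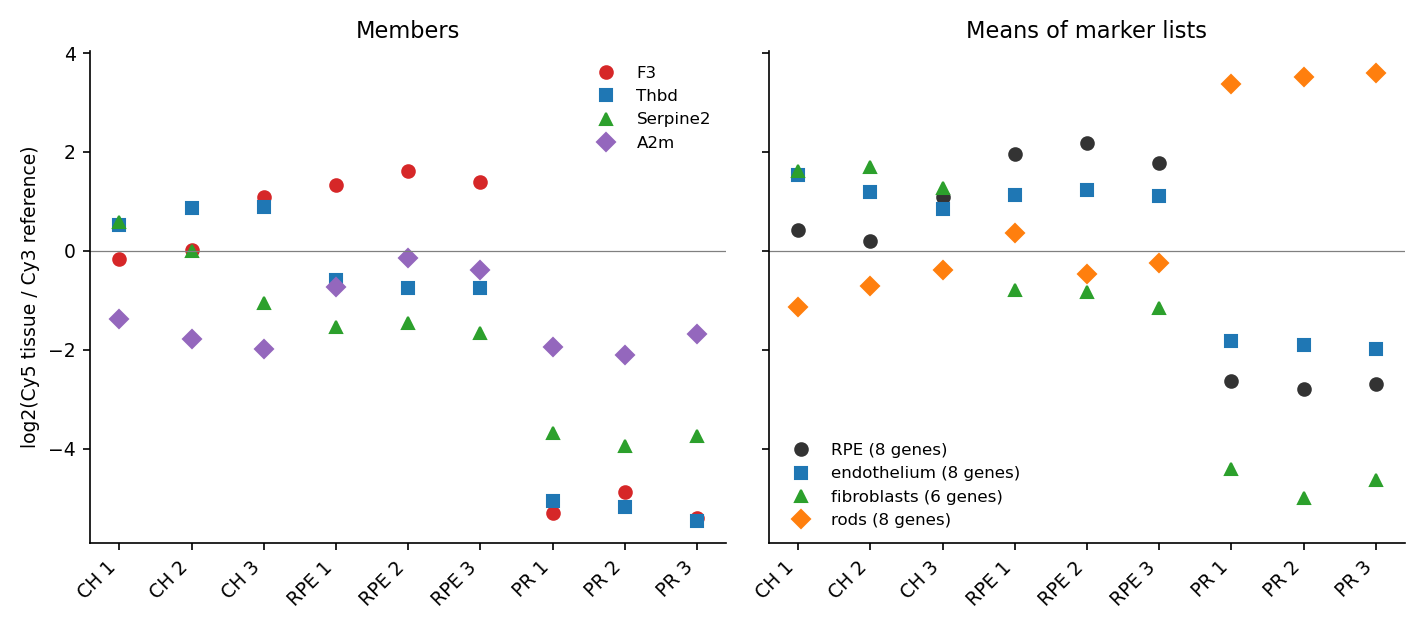
Log2 ratio to the common reference on each of the 9 arrays for F3 (probe 1), Thbd, Serpine2 and A2m (left) and the mean over the markers of RPE, endothelium, fibroblasts and rods (right). On CH replicate 3 the F3 ratio of 1.10 and the RPE marker mean of 1.09 are the highest of the 3 CH arrays, and the Serpine2 ratio of -1.05 is the lowest.

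The pattern of 3 of the genes over the 9 arrays was also set beside all other named genes that were well above background in at least 1 tissue, 18539 probes in all. Most like F3 probe 1 were Rhobtb3, with a Pearson r of 0.9992, and then Tshr, Acot11, Tes and Cdh3, with the last at 0.9985. Most like Thbd were Igsf10 (r = 0.9988), Trim30, Mgll, Itga4 and Wipf1 (r = 0.998). Most like F13a1 probe 1 were Sirpb1 (r = 0.993), Has2, Isg20, Rgs18 and Esyt2 (r = 0.9806). These values describe 9 arrays that fall into 3 tissues and share the reference, so that any gene with a like order of tissues scores high.

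Beyond the 9 genes, 49 other genes of clotting and fibrinolysis were on the array, from a list of 50. Between the RPE and the CH, 0 of these 49 passed both thresholds in limma in either direction. Of all genes, 0.217% passed as higher in the RPE and 1.81% as higher in the CH. With shares this small, 0 of 49 does not set these genes apart from the rest. At an unadjusted p below 0.05, 2 were higher in the RPE and 9 were higher in the CH. The share of all genes at this p was not counted, so nothing is read from these counts. Their median RPE minus CH difference was -0.03, against 0.03 over all genes. Entpd1, which breaks down the ATP and ADP that activate platelets, had a RPE minus CH difference of -1.17 (SE 0.15, adjusted p = 0.000684, limma). Tgm2, a transglutaminase of many tissues, had one of -1.04 (SE 0.14, adjusted p = 0.000959). Both fell short of the FC of 2.5 only, and Entpd1 passed both thresholds without CH replicate 3.

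Against the PR, 12 of the 49 passed both thresholds as higher in the RPE, where 11.2% of all genes did. As higher in the CH, 12 passed as well, where 13.2% of all genes did. The medians over the 49 genes were 0.05 and 0.05, against -0.01 and -0.05 over all genes. As higher in the PR, 2 passed against the RPE and 3 against the CH, where 5.71% and 6.92% of all genes did. Whether these counts differ from the shares was not tested. The 3 largest measured differences of the RPE and of the CH to the PR were those of Ptgis, Entpd1 and Vwf, all genes of the vessel wall. Of the 4 vessel wall enzymes that restrain platelets, 3 were higher in both tissues. Ptgis, the prostacyclin synthase, had a RPE minus PR difference of 4.67 and a CH minus PR difference of 4.65 (both SE 0.11, adjusted p = 4.82e-09 and 2.53e-09, limma). Entpd1 was not well above background on any PR array. Taken as for F13a1, its mean Cy5 signal was 12.4-fold higher in the RPE and 28.1-fold higher in the CH than in the PR. The probe's own signal entered on every PR array, so these folds are measured values and not lower bounds. The measured differences of log2 ratios were 3.91 and 5.08 (both SE 0.15, adjusted p = 2.84e-08 and 5.07e-09, limma). Nos3, the endothelial nitric oxide synthase, gave 1.79 and 2.15 (both SE 0.18), and Adamts13, the protease that trims von Willebrand factor, did not pass the thresholds.

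Of the 15 clotting factors and fibrinogen genes only Vwf passed both thresholds as higher in the RPE or the CH against the PR. The brighter probe of F5, the gene of factor V, had differences of 1.43 and 1.26 (both SE 0.43, adjusted p = 0.019 and 0.0315, limma) and the first passed both thresholds without CH replicate 3. The other F5 probe gave 0.86 and 0.34. Vwf encodes von Willebrand factor, the adhesive protein of endothelial cells and platelets. Its log2 ratios were 2.62, 2.62 and 2.22 in the CH, 1.71, 1.91 and 1.82 in the RPE, and -2.26, -2.29 and -2.36 in the PR. RPE minus PR was 4.12 and CH minus PR was 4.79 (both SE 0.12, adjusted p = 9.92e-09 and 2.95e-09, limma). RPE minus CH was -0.67 (SE 0.12, adjusted p = 0.00392, limma), short of the threshold on the FC. Among genes of plasma proteins from the liver, F9 was well above background on all 9 arrays, while F12, F13b and Fgb were so on 1 RPE array only. On RPE replicate 2, 91.7% of all probes were well above background, so detection on 1 RPE array is not read as expression in the RPE.

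Of 6 further genes of the plasminogen system, 3 passed as higher in the RPE and 4 as higher in the CH against the PR. Plaur, the receptor that holds urokinase at the cell surface, had differences to the PR of 1.52 in the RPE and 1.93 in the CH (both SE 0.14). S100a10, which binds plasminogen and its tissue-type activator together with annexin A2, gave 1.82 and 2.03 (both SE 0.11). Lrp1, the receptor that clears activators bound to their inhibitors, gave 2.79 and 2.53 (both SE 0.10). Anxa2, the annexin itself, gave 0.83 and 1.65 (both SE 0.17), of which the second passed. Plgrkt, a plasminogen receptor, gave 0.05 and 0.11 (both SE 0.08, adjusted p = 0.657 and 0.289, limma), and Plg, the gene of plasminogen, was not well above background on any CH or PR array.

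Among the remaining lists single genes passed. F2r, the main receptor for thrombin, gave 3.35 in RPE minus PR and 3.40 in CH minus PR (both SE 0.17), while F2rl1 and F2rl2 of the same family were not well above background on any array. Tgm2 gave 2.67 and 3.71 (both SE 0.14). Pros1, the cofactor of activated protein C, gave 1.63 and 2.46 (both SE 0.19) and was 1 of 8 further anticoagulant genes. Vkorc1, which recycles vitamin K, gave 1.43 and 1.90 (both SE 0.10). Serpinf2, the plasmin inhibitor, gave 1.42 and 1.01 (both SE 0.20), of which the first passed, and with the slide as a block that value was 1.02 and did not pass. The adjusted p-values of those that passed without the block were at most 0.000198 in limma.

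A few clotting genes had the opposite order, with the PR highest. F11 and Klkb1 passed the thresholds as higher in the PR than in both other tissues, and F2 as higher than in the CH. The log2 ratios of Klkb1, the gene of plasma prekallikrein, were 2.95, 2.35 and 2.20 in the PR, -0.78, -0.56 and -0.46 in the CH, and -0.62, -0.85 and -0.77 in the RPE. RPE minus PR was -3.25 and CH minus PR was -3.10 (both SE 0.18, adjusted p = 3.29e-07 and 3.48e-07, limma). F11, the gene of factor XI, had log2 ratios of 3.00, 2.57 and 2.08 in the PR, -0.48, -0.17 and -0.05 in the CH, and -0.47, -0.55 and -0.31 in the RPE. It was well above background on all PR arrays, 2 CH arrays and 1 RPE array, and RPE minus PR was -2.99 and CH minus PR was -2.78 (both SE 0.21, adjusted p = 1.51e-06 and 1.97e-06, limma). In the RefSeq gene table F11 and Klkb1 are direct neighbours, with 0 protein-coding genes between them. They also encode related proteins, and cross-hybridisation between their probes was not tested. F2, the gene of prothrombin, was not well above background on any CH array. The mean Cy5 signal was 2.67-fold higher in the PR, with each CH array entering at the probe's own signal. This value is not a lower bound for the log2 ratios. The measured CH minus PR difference of log2 ratios was -1.40 (SE 0.13, adjusted p = 7.09e-06, limma), a FC of 2.64. With the slide as a block it was -1.20 and missed the threshold on the FC.

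**Figure D4:**
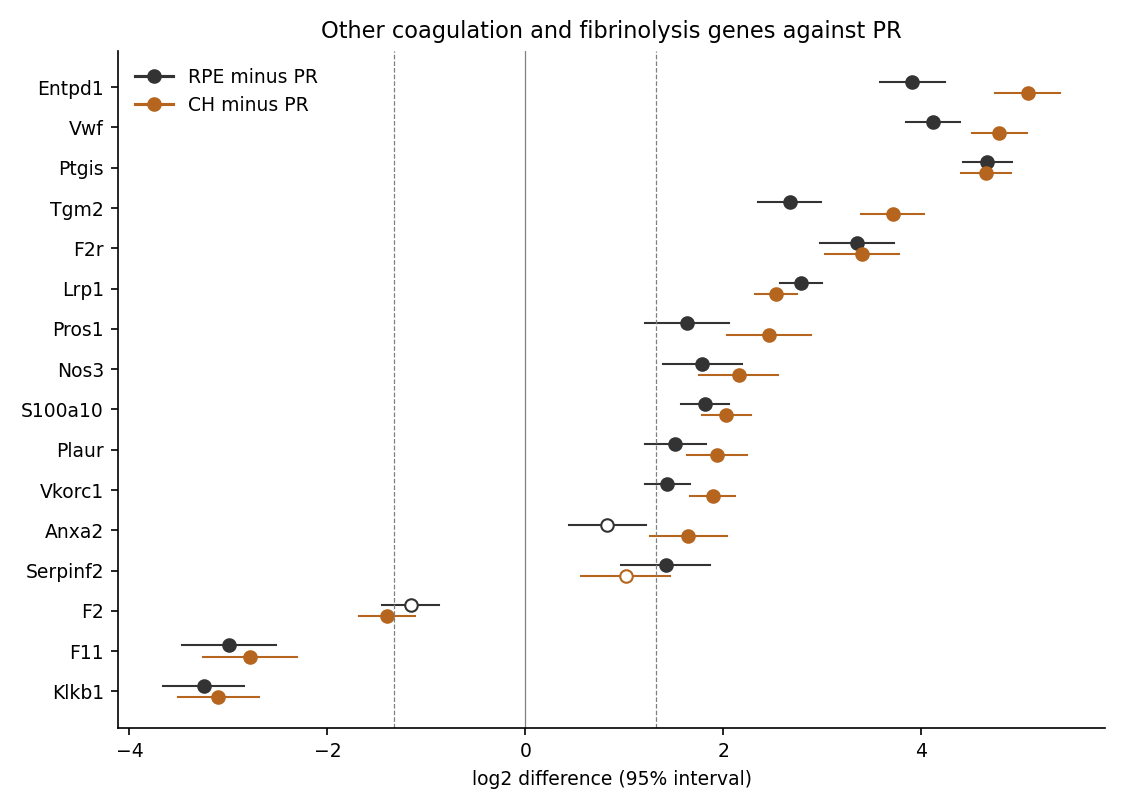
Difference in log2 ratio to the PR for the 16 other clotting and fibrinolysis genes that passed a FC of 2.5 (dashed lines) and an adjusted p-value of 0.01 in at least 1 comparison, with 95% intervals from the fit over 9 arrays. Filled points passed both thresholds. Entpd1 was not well above background in the PR, nor F2 in the CH, so their points are measured differences and not bounds, and F2, F11 and Klkb1 lie on the side of the PR.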

How the data were processed

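The authors deposited Feature Extraction (9.5.3.1) output of 9 dual-colour arrays, in which the mean signal and median local background of each spot are intensities as scanned. The log ratio that the software deposited is log10 of Cy5 over Cy3. A series table from the authors gives the Cy5 channel as log2 (r = 0.9845 to 0.9991 with log2 Cy5 signal), and its normalization is not given in the sources used here. Both served as alternatives only.

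Background was corrected with normexp (offset 50), log2(Cy5/Cy3) was normalized within arrays by loess, outlier-marked spots were left out and spots of a probe were averaged. Tissue means were fitted with limma 3.58.1 (R 4.3.3) over 9 arrays, with Benjamini-Hochberg (B-H) adjustment over 39429 probes. The fit was tested on simulated data. Genes in calls are counted at any probe, while medians use the brightest. Slides were read from the scan identifier in the file headers. Loess assumes that most genes do not differ, and RNA amplification can alter ratios.

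The members, lists and tests were chosen with earlier results of these data known. The genes named are all members, the pathway genes past both thresholds in 1 or more comparisons (at the brightest probe that passed) and the 5 genes most alike to F3, Thbd and F13a1. Some results are not reported here and were left out of the pathway counts. Genes named outside this rule were chosen after their values were seen. The alternatives, 22 for counts and 16 for differences, covered background, normalization, blocks, probes, spots, variance, thresholds and each array left out. Figures were drawn with matplotlib in Python.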

Additional observations from a re-analysis of the deposited data

How the results depend on the processing

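The number of members past the thresholds as higher in RPE than in CH was 1. It was 2 with the Feature Extraction log ratio or a FC above 2, 0 with the series table, where F3 probe 2 kept a difference of 1.64, and 0 when only the brightest probe of a gene counted. It ranged from 1 to 2 when single arrays were left out, where A2m was added without CH replicate 1 or RPE replicate 1. As higher in the CH there were 2 members, 4 with median centring (Tfpi and Serpine2 added) and 1 to 3 when single arrays were left out. Other pathway genes higher in CH than in RPE numbered 0, but 2 with median centring or a FC above 2 (Entpd1 and Tgm2) and 0 to 1 when single arrays were left out, where Entpd1 was added without CH replicate 3. Other pathway genes higher in PR than in RPE numbered 2, but 6 with the Feature Extraction log ratio or a FC above 2. Those higher in PR than in CH numbered 3, but 8 with the Feature Extraction log ratio and 5 with a FC above 2. With the slide as a block F2 did not pass against the CH, nor Serpinf2 in the RPE against the PR, and Vkorc1l1 was added as higher in PR than in CH. The causes were not tested. Over all genes 69 were higher in the RPE and 576 in the CH, but 12 and 1089 with median centring and 24 and 362 with the series table. The share of calls higher in RPE than in PR was 66.3%, and 54.4% with the Feature Extraction log ratio, and that of calls higher in CH than in PR was 65.5% and 53.5%. Of the 36 member differences, the sign turned only at the dim F13a1 probe 2, in 2 settings of CH minus PR (median centring and the series table). Between arrays with the same replicate number, the correlations of deviations from the tissue means were -0.078 to 0.286. They were -0.312 to 0.246 between arrays with different numbers. Those among the replicate 2 arrays, which share a slide, were all above 0, at 0.164, 0.232 and 0.286. The numbers were not taken as pairs. With the replicate block the pathway counts were 0 and 0 for the RPE against the CH, 12 and 2 for the RPE against the PR, and 12 and 3 for the CH against the PR, and no member call changed. Dim probes limit F13a1 and the plasma protein genes.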

Other observations

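A few pathway genes outside the naming rule gave values that a reader may want to see, and they were chosen after their values were seen. Cpb2, which encodes a carboxypeptidase that slows fibrinolysis, was well above background on all 9 arrays and lower in the RPE than in the PR by 1.26 on the log2 scale (the difference was -1.26, SE 0.16, adjusted p = 8.33e-05, limma), short of the threshold on the FC. The brighter F10 probe was saturated on all 9 arrays, so its differences, such as -1.14 for RPE minus PR, have no order of levels behind them. Vkorc1l1, a relative of Vkorc1, had a CH minus PR difference of -1.23 (SE 0.09, adjusted p = 1.64e-06, limma), opposite in sign to the 1.90 of Vkorc1.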
